A study of Mus musculus with 7 samples.

Results

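The receptors for the constant part of IgG (Fc gamma receptors) and the signalling chain they share were examined as 5 genes: Fcgr1, Fcgr2b, Fcgr3, Fcgr4 and Fcer1g. They were taken by gene name from the 54532 genes of the deposited table, each name stood for 1 gene, and all 5 were among the 15795 genes that passed the filter on low counts. RNA sequencing was run on mouse spleen cells, described in the labels as sorted follicular helper T (Tfh) cells, CD4 T cells that help B cells make antibody. All animals had been sensitised with ovalbumin (OVA) by intraperitoneal injection, and no further treatment is given. The wild-type (WT) group has 3 libraries. The knockout (KO) group has 4, labelled Mst1 knockout by genotype and Mst1∆CD4 in the titles, which would name a Cd4-driven deletion that leaves the gene in B cells and myeloid cells. The promoter of the Cre is not stated in the labels. Each library is labelled a biological replicate. Age, sex, strain and any pooling of animals are not stated. The labels set up a comparison of MST1 loss in Tfh cells.

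Fc gamma receptors let cells sense IgG bound to an antigen. FcγRI (Fcgr1), FcγRIII (Fcgr3) and FcγRIV (Fcgr4) are activating in the mouse, and each pairs with the common gamma chain FcRγ, the product of Fcer1g, whose cytoplasmic tail carries an immunoreceptor tyrosine-based activation motif (ITAM). FcγRIIB (Fcgr2b) is the inhibitory receptor, carries an inhibitory motif (ITIM) in its own tail and is the Fc gamma receptor of B cells, while monocytes, macrophages, neutrophils and dendritic cells express mixtures of activating and inhibitory receptors. T cells are not known as a main source of these receptors.

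The coding bases of the activating and the inhibitory motif are shown because they set the chain and the inhibitory receptor apart. They were found in the coding sequence of GENCODE M21 transcripts, with the tyrosine codons and the leucine codons of each motif in capitals. The Fcer1g stretch lies at chr1:171229889-171230072, minus strand, of GRCm38 and spans an intron. The Fcgr2b stretch lies at chr1:170961071-170961088, minus strand, and ends 94.4% of the way along the coding sequence of Fcgr2b-201. No ITAM match was found in the 4 receptor genes. The short ITIM pattern also matched in Fcer1g, Fcgr1 and Fcgr4, and not in Fcgr3, so a match by itself names no inhibitory motif.
Fcer1g ITAM: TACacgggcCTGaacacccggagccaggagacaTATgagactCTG
Fcgr2b ITIM: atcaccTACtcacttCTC

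Fcgr2b and Fcgr3 are close relatives, which bears on how reads can be told apart. The coding sequences of the transcript Fcgr2b-201 and of the Fcgr3 transcript with 1347 bases were identical at 86.5% of 785 aligned bases, against 67.2% for Fcgr2b with Fcgr4 and 64% for Fcgr2b with Fcgr1. The longest run that they share has 129 bases and crosses an intron, at chr1:170966674-170968081 in Fcgr2b and chr1:171054167-171057792 in Fcgr3, both on the minus strand of GRCm38. It is shown with the 60 bases that follow it in each gene, where the 1 differing base is in capitals.
Shared run: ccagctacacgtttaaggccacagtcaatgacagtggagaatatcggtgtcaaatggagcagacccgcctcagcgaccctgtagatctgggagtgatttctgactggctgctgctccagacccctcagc
Fcgr2b, next bases: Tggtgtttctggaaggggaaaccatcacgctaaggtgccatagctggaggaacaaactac
Fcgr3, next bases: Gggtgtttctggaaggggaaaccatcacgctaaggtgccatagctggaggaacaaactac
Of all stretches of 50 bases in Fcgr3 transcripts, 9.58% also occurred in Fcgr2b, and of those of 100 bases, 2.54%. In the longer Fcgr2b transcripts the shares that occurred in Fcgr3 were 2.92% and 0.753%. The shares of Fcgr2b that occurred in any other gene were larger, at 6.95% and 4.3%, with Cplx2 at 2.17% of the stretches of 100 bases. Fcgr1, Fcgr4 and Fcer1g shared no stretch of 50 bases with another gene. How the authors' counting treated such reads is not stated, so the values of Fcgr2b and Fcgr3 carry that uncertainty. Counts per gene also do not tell apart the transcripts Fcgr2b-201 and Fcgr2b-202, with coding sequences of 1023 and 882 bases.

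The libraries held between 16789158 and 18375275 counts. Stk4, which encodes MST1, stood at 327 ± 10.1 CPM (counts scaled to the library total and TMM factor, mean ± SD, n = 3) in WT and 293 ± 7.34 CPM (n = 4) in KO, with an adjusted p of 0.225 (edgeR). WT and KO therefore stand for the labels, which this gene does not check. Markers of several other cell types were present. The summed level of 10 Tfh and T cell markers lay between 555 and 761 CPM in WT and between 187 and 354 CPM in KO, with 9 of 10 lower in KO and 6 without WT replicate 2. The labels describe a Tfh sort, and these sums lay below those of B cell and neutrophil markers in every library. The 6 erythroid markers, all higher in KO, summed to 47.3 to 90.9 CPM in WT and 434 to 1043 CPM in KO. The 8 B cell markers summed to between 1497 and 5805 CPM and the 12 neutrophil markers to between 9686 and 18215 CPM over all libraries. No marker found in the table was at 0 in every library. In such mixed samples, fewer cells of a type and less RNA per cell cannot be told apart.

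None of the 5 genes passed an adjusted p of 0.05 in edgeR's quasi-likelihood test, where 15.5% of all tested genes did, 8.71% higher in KO and 6.83% lower. At an unadjusted p under 0.05 there was 1, Fcgr2b, where 31.8% of all tested genes had such a p. DESeq2 called that 1 gene and 18.4% of the genes it tested. The log2 fold changes (KO over WT) ran from -0.32 for Fcgr2b to 0.75 for Fcgr1, with a median of 0.08 against -0.002 over all tested genes. Only in Fcgr2b did the groups not overlap, 1 of 5 genes, where 30% of all tested genes had groups that did not overlap and 14.7% had all KO libraries lower. The shares of 8.71% and 6.83% are also the background for the counts of called marker and list genes, which were not tested against them.

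**Figure D1:**
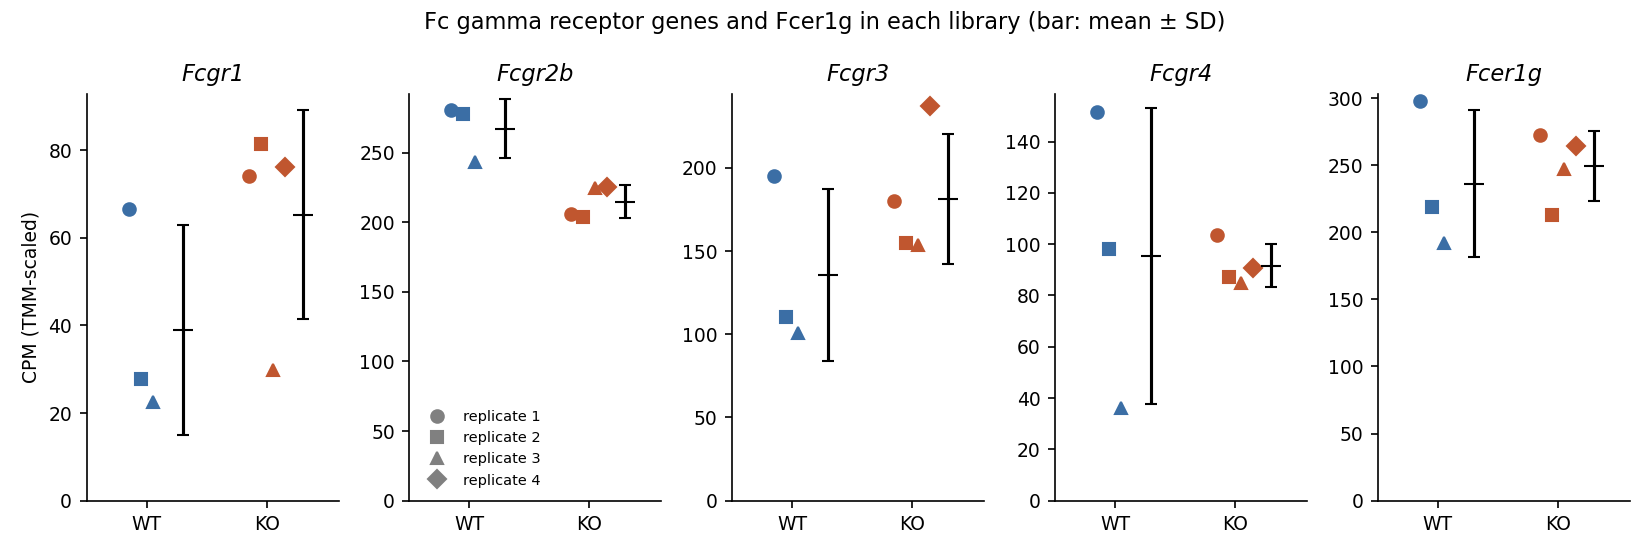
CPM of the 5 genes in each library, WT in blue and KO in orange, with the replicate number as the symbol and the group mean ± SD as a bar (n = 3 and 4). Fcgr2b is lower in all 4 KO libraries than in any WT library, Fcgr1 is low in KO replicate 3 and in WT replicates 2 and 3, and Fcgr4 runs from 36.3 to 151 CPM within WT alone.

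Fcgr2b (ENSMUSG00000026656, chromosome 1, 170958617 to 170976547, minus strand) encodes the inhibitory receptor. It stood at 281, 278 and 243 CPM in WT replicates 1 to 3 and at 206, 204, 225 and 225 CPM in KO replicates 1 to 4. Every KO library lay below every WT library, and the spread was narrow, at 267 ± 20.9 CPM (n = 3) and 215 ± 11.8 CPM (n = 4). The log2 fold change was -0.32 (SE 0.09, 95% interval -0.53 to -0.10), a ratio of 0.804, with an edgeR adjusted p of 0.0509, just outside the threshold. Over 20 alternative fits the adjusted p ran from 0.0174 (limma-voom with quality weights) to 0.151 (without WT replicate 1). It was under 0.05 in 7, and the log2 fold change lay between -0.38 and -0.28 throughout. In the authors' deposited table the log2 fold change of Fcgr2b is -0.31 with an adjusted p of 0.0192, where 12.5% of the genes with an adjusted p in that table have one under 0.05. The other 4 genes have adjusted p-values of 0.380 (Fcgr1), 0.267 (Fcgr3), 0.948 (Fcgr4) and 0.830 (Fcer1g) in the authors' deposited table.

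B cell markers had log2 fold changes in the same direction as Fcgr2b. Of 8, 1 passed the test, Cd22, with a count between 0 and 5 without 1 library, and all 8 had a negative log2 fold change, with a median of -0.89. Their summed level was 4363 to 5805 CPM in WT and 1497 to 3613 CPM in KO. The ratio of Fcgr2b to Cd79a, a component of the B cell receptor, varied within both groups. It was 0.418, 0.257 and 0.326 in WT and 0.404, 0.519, 0.432 and 1.01 in KO, and the groups overlapped. KO replicate 4, with the lowest B cell sum and the highest monocyte sum (4292 CPM), had 225 CPM of Fcgr2b, as much as KO replicate 3. The part of B cell and monocyte content in the Fcgr2b difference was not tested. By the distance between profiles over the 7 libraries (root mean square difference of mean-centred log2 CPM), the closest of 12061 protein-coding genes were Igf2r at 0.0473, Ssh2 at 0.0522 and Csnk1e at 0.0526, where the median gene lay at 0.29. These 3, picked for their likeness to Fcgr2b, fell in KO, with adjusted p-values of 0.0283, 0.0345 and 0.0337 (edgeR), and Igf2r encodes the receptor that carries mannose 6-phosphate proteins to lysosomes.

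Fcgr1 (ENSMUSG00000015947, chromosome 3, 96282909 to 96293969, minus strand) encodes the high-affinity receptor of monocytes and macrophages, which interferon gamma is known to induce. It stood at 66.6, 27.8 and 22.5 CPM in WT and at 74.0, 81.4, 29.7 and 76.1 CPM in KO. WT replicate 1 was near the 3 high KO libraries, and KO replicate 3 was near the 2 low WT libraries. The log2 fold change was 0.75 (SE 0.49, 95% interval -0.42 to 1.91, adjusted p = 0.351 in edgeR), so neither no difference nor a ratio of 3.77 lies outside the interval. Without WT replicate 1 it was 1.38 (adjusted p = 0.0946) and without KO replicate 3 it was 0.99 (adjusted p = 0.145). Within groups, log2 CPM of Fcgr1 had an SD of 0.75, more than 97.9% of the 9739 genes with at least 10 CPM.

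Its 3 closest profiles were Gbp3, a guanylate-binding protein gene, at 0.14, Fgl2, a gene of a fibrinogen-like protein, at 0.20 and Irgm1, an immunity-related GTPase gene, at 0.23, with the median gene at 0.77. These 3 were picked for their likeness to Fcgr1 over the same libraries, so a shared order of libraries follows from the choice. Gbp3 stood at 172, 87.3 and 71.3 CPM in WT and at 240, 231, 106 and 222 CPM in KO. Its lowest libraries were WT replicates 2 and 3 and KO replicate 3. None of the 3 passed the test between genotypes, with adjusted p-values of 0.182, 0.134 and 0.179 (edgeR). Monocyte markers stood beside Fcgr1, with 3 of 6 higher in KO (Ccr2, Ly6c2 and F13a1), between 2 and 4 without 1 library, and sums of 1489 to 2130 CPM in WT and 2776 to 4292 CPM in KO, of which KO replicate 3 was the lowest. The ratio of Fcgr1 to Csf1r, the receptor gene that marks monocytes and macrophages, was 0.103, 0.0531 and 0.0542 in WT and 0.104, 0.116, 0.0378 and 0.118 in KO. The same 3 libraries were low in that ratio. Of 11 red pulp macrophage markers, 0 passed edgeR's test and up to 1 did without 1 library, with sums of 566 to 984 and 438 to 1191 CPM. The part of these cells in the Fcgr1 values was not tested.

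The bases upstream of the activating receptor genes are shown because these 3 genes had the widest spread within groups of the 5. They come from RefSeq (GRCm38.p6) and end before any GENCODE exon of the gene, at chr3:96293970-96294099 for Fcgr1, chr1:171059404-171059494 for Fcgr3 (minus strands) and chr1:171018826-171018919 for Fcgr4 (plus strand). Capitals mark GAGGAA on either strand, the core bound by the myeloid factor PU.1, and TTCNNNGAA, the element bound by STAT factors downstream of interferon gamma. In the 250 bases before each RefSeq start, GAGGAA occurred in all 3 of these genes but not in Fcgr2b or Fcer1g, and in 23.3% of 32851 promoters. TTCNNNGAA occurred in Fcgr1, at position -109 from the start, in none of the other 4 genes, and in 7.02% of promoters. The same element with 1 more base in its gap was in none of the 5 and in 5.85% of promoters. The motifs do not overlap each other here, and a match describes letters only.
Fcgr1: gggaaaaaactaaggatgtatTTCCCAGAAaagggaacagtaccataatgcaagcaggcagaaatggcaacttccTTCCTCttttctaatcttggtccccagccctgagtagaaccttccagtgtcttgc
Fcgr3: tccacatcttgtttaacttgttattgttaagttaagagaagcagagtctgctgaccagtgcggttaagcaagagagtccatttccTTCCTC
Fcgr4: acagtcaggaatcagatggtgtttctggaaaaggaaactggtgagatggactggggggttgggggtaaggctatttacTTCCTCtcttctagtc

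Fcgr3 (ENSMUSG00000059498, chromosome 1, 171051174 to 171064935, minus strand) encodes a low-affinity activating receptor of myeloid and natural killer cells. It stood at 195, 111 and 101 CPM in WT and at 180, 155, 154 and 237 CPM in KO. The WT mean was 136 ± 51.7 CPM and the KO mean 181 ± 39.1 CPM, and WT replicate 1 lay above 3 of the KO libraries. Its log2 fold change was 0.42 (SE 0.26, 95% interval -0.17 to 1.01, adjusted p = 0.307 in edgeR). WT replicate 1 decided the call: without it, the value was 0.78 with an adjusted p of 0.0402, over alternatives whose adjusted p ran up to 0.613. The ratio of Fcgr3 to Csf1r overlapped between groups, at 0.252 ± 0.0453 in WT and 0.259 ± 0.0763 in KO. The closest profiles were Tnfsfm13 at 0.11, Mettl7a1 at 0.11 and Tlr8, an endosomal RNA receptor gene, at 0.12.

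Fcgr4 (ENSMUSG00000059089, chromosome 1, 171018920 to 171029761, plus strand) encodes an activating receptor of neutrophils, macrophages and patrolling monocytes. It stood at 151, 98.0 and 36.3 CPM in WT and at 104, 87.4, 84.8 and 90.9 CPM in KO. The WT libraries spread over a ratio of 4.17 and the KO libraries over a ratio of 1.22, with all KO values inside the WT range. The log2 fold change was -0.06 (SE 0.41, 95% interval -1.04 to 0.93, adjusted p = 0.943 in edgeR). Its sign turned without WT replicate 1, at 0.45, and it was -0.44 without WT replicate 3, neither past the test. The 4 patrolling monocyte markers summed to 753, 566 and 360 CPM in WT replicates 1 to 3, in the same order as Fcgr4. The sums of Tfh and T cell, natural killer cell and dendritic cell markers had that order in WT too. In KO the patrolling monocyte sums lay between 286 and 504 CPM, and none of these markers passed edgeR's test. In KO, where Fcgr4 was narrow, KO replicate 3 had the highest patrolling monocyte sum and the lowest Fcgr4. Of 12 neutrophil markers, 6 had a positive log2 fold change, and the median was -0.06. In edgeR's test 1 was higher, Mmp8 at 0.59 (adjusted p = 0.0358), and 4 were lower, among them S100a8 and S100a9 at -0.70 and -0.67 (adjusted p = 0.0305 and 0.0441). Between 1 and 5 were lower without 1 library, and none was higher without any 1 of the WT libraries or without KO replicate 1 or 2. The ratio of Fcgr4 to S100a8, which itself fell in KO, was 0.0628, 0.0376 and 0.0101 in WT and between 0.0429 and 0.058 in KO. The closest profiles were Smpdl3b at 0.16, Il17rb at 0.18 and Klrg1 at 0.20. The part of monocyte and neutrophil content was not tested.

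Fcer1g (ENSMUSG00000058715, chromosome 1, 171229572 to 171234365, minus strand) encodes the common chain, which activating Fc gamma receptors and the IgE receptor need at the cell surface. It stood at 298, 219 and 192 CPM in WT and at 272, 213, 247 and 264 CPM in KO, and the KO values lay inside the WT range. KO over WT, its log2 fold change was 0.08 (SE 0.16, 95% interval -0.28 to 0.43, adjusted p = 0.774 in edgeR), so ratios above 1.35 or below 0.826 lie outside the interval. For each of the 5 genes, WT replicate 1 was the highest WT library. The ratio of Fcer1g to Tyrobp, another ITAM chain of myeloid cells, was 0.869 ± 0.00876 in WT and 0.717 ± 0.15 in KO, where KO replicate 3 stood at 0.941 and the other KO libraries between 0.629 and 0.661. Basophil and mast cell markers, of which 1 of 7 passed (Gata2, higher), summed to 175 to 282 CPM in WT and 253 to 795 CPM in KO, and natural killer cell markers, of which 1 of 6 passed (Klrb1c, lower), to 62.0 to 133 and 56.4 to 99.4 CPM. Neither Gata2 nor Klrb1c was called without any 1 of the WT libraries or without KO replicate 2. Their part was not tested. The closest profiles were Stxbp3 at 0.07, Slc9a9 at 0.09 and Usp40 at 0.10.

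**Figure D2:**
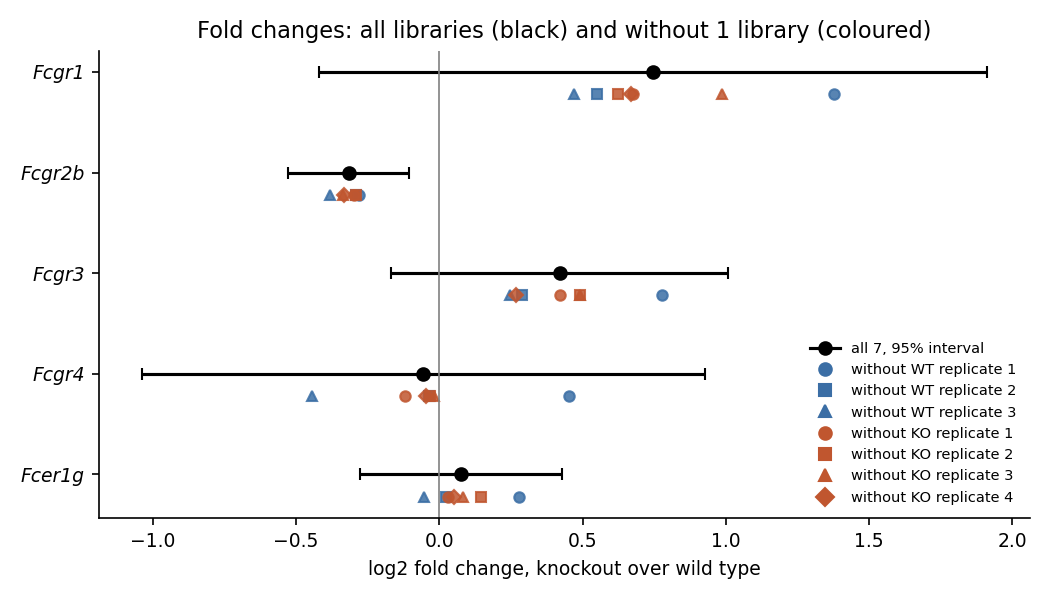
Log2 fold change (KO over WT) of each gene with all 7 libraries in black, with its 95% interval, and without 1 library in colour below it. Fcgr2b stays between -0.38 and -0.28 without any 1 library, while Fcgr4 lies between -0.44 and 0.45.

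The levels of the 5 genes were compared per gene length with the deposited FPKM values, which scale counts by gene length and library size. Fcer1g was the highest and Fcgr1 the lowest in all 7 libraries. In WT the means were 268 ± 60.8 FPKM for Fcer1g, 77.2 ± 29.1 for Fcgr3, 75.0 ± 45.1 for Fcgr4, 45.7 ± 3.43 for Fcgr2b and 14.9 ± 9.12 for Fcgr1 (n = 3). In KO they were 282 ± 29.1 FPKM for Fcer1g, 103 ± 21.6 for Fcgr3, 72.3 ± 6.63 for Fcgr4, 36.7 ± 1.89 for Fcgr2b and 25.0 ± 9.13 for Fcgr1 (n = 4). Fcgr3 was above Fcgr4 in all 4 KO libraries, but in WT their order changed between libraries and their means differed by less than the SD. In WT replicate 3 Fcgr4, at 28.7 FPKM, was also below Fcgr2b, at 41.7 FPKM.

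The place of Fcgr2b in that order depends on the length used. The deposited length of Fcgr2b is 5790 bases, while its GENCODE transcript Fcgr2b-201 has 3544 and Fcgr2b-202 has 1462. At the length of Fcgr2b-202 the WT mean would be 181 FPKM and the KO mean 145 FPKM. These values lie above the 99.5 and 133 FPKM that Fcgr3 would have in the same groups at its transcript of 1347 bases. At its shorter transcript of 547 bases Fcgr3 would have 245 FPKM in WT and 328 FPKM in KO, above Fcgr2b. The order of Fcgr2b and Fcgr3 therefore depends on the transcript chosen for each gene. Which transcript was present cannot be read from counts per gene. The deposited length of a gene is the same in every library, so the choice of length does not change comparisons of 1 gene between libraries. A different mix of transcripts between libraries could change them, and it was not examined.

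**Figure D3:**
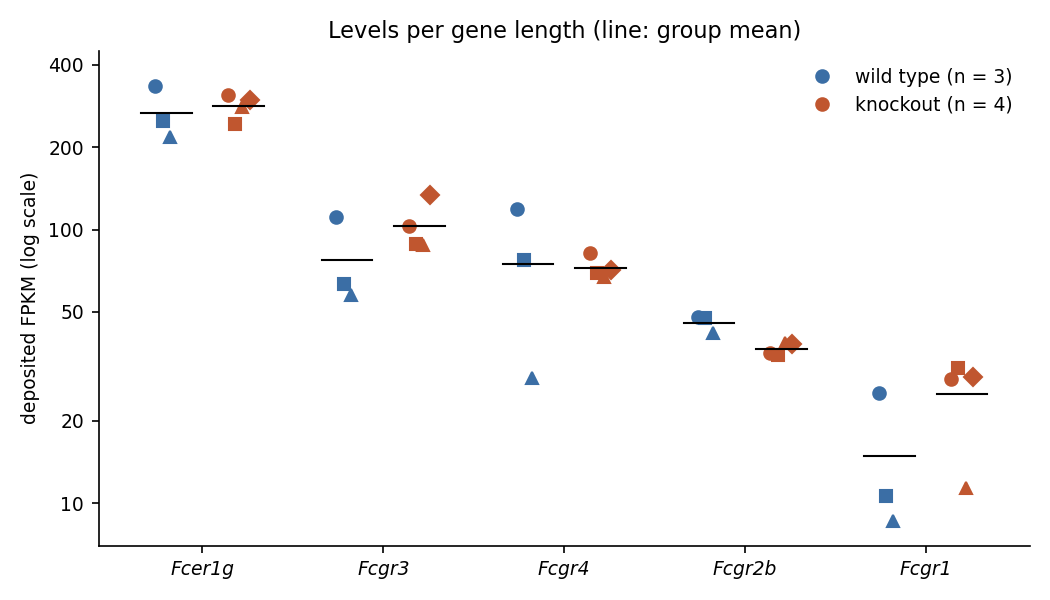
Deposited FPKM of the 5 genes in each library on a log axis, ordered by the WT mean, with WT in blue, KO in orange and the group mean as a line. Fcer1g is the highest and Fcgr1 the lowest in every library, and Fcgr3 and Fcgr4 overlap within WT.

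The balance of activating to inhibitory receptors is known to set how strongly a cell answers IgG complexes. The ratios here are of whole libraries with several cell types, so they do not give the balance within a cell. B cell markers had a median log2 fold change of -0.89 and monocyte markers of 1.16, and their part in the ratios was not tested. The summed FPKM of Fcgr1, Fcgr3 and Fcgr4 over that of Fcgr2b was 5.33, 3.18 and 2.28 in WT and 6.04, 5.41, 4.32 and 6.12 in KO. All KO libraries were above WT replicates 2 and 3, and WT replicate 1 was above KO replicate 3, so the groups overlapped. The means were 3.60 ± 1.57 (n = 3) and 5.47 ± 0.833 (n = 4), a ratio of 1.52, which was 2.01 without WT replicate 1 and 1.29 without WT replicate 3. No test was made of this combined value, since the genes were chosen with results of these data known. At the lengths of single transcripts with Fcgr2b-202 the means would be 1.03 and 1.59. Within the activating sum, Fcgr3 made up 41.8 to 60.7% in WT and 46.9 to 57.3% in KO. Fcgr4 made up 30.2 to 51.2% and 30.4 to 40.3%, and Fcgr1 7.03 to 9.94% and 6.85 to 16.5%. The ratio of Fcer1g to the activating sum was 1.75 ± 0.500 in WT and 1.42 ± 0.195 in KO, and the groups overlapped.

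**Figure D4:**
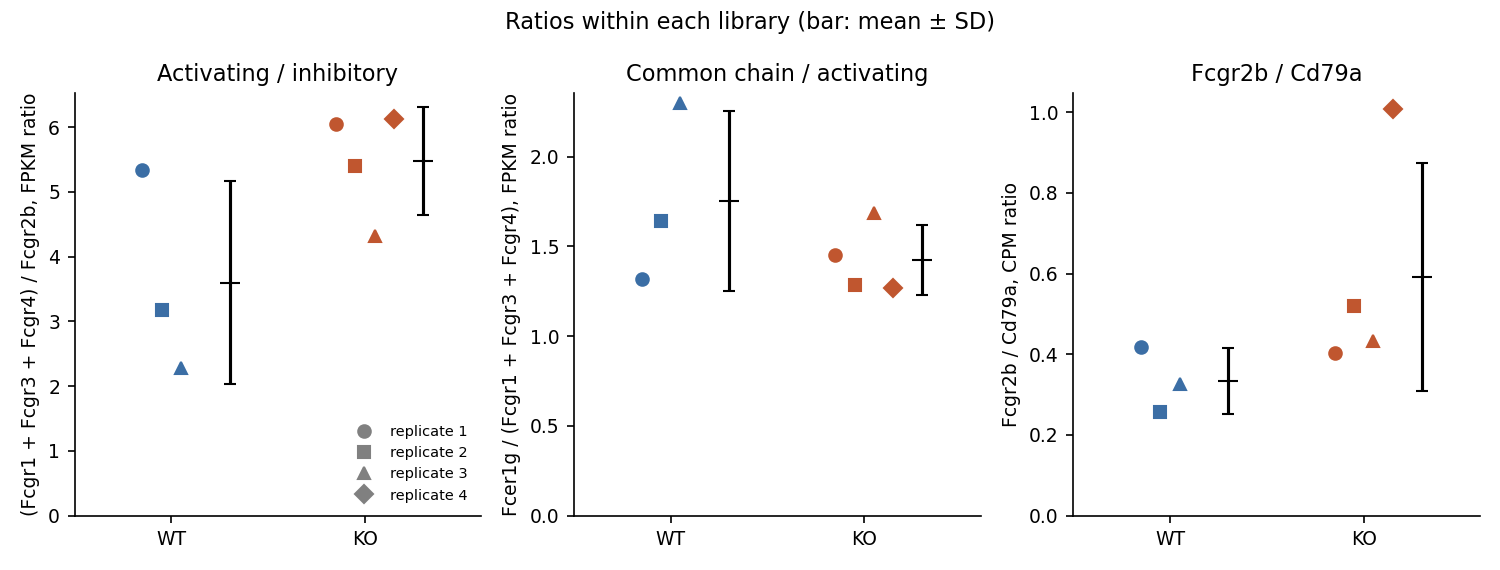
Ratios within each library, with WT in blue, KO in orange, the replicate number as the symbol and the group mean ± SD as a bar (n = 3 and 4). The activating to inhibitory ratio is 2.28 to 5.33 in WT and 4.32 to 6.12 in KO, and the ratio of Fcgr2b to Cd79a reaches 1.01 in KO replicate 4.

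The ligands of the receptors are IgG heavy chains, whose genes are close relatives. None of the 4 passed edgeR's test, with 0 at an unadjusted p under 0.05. Their summed level was 3432 to 3614 CPM in WT and 1803 to 10351 CPM in KO. Ighg3 stood at 869 ± 186 and 1922 ± 1811 CPM (log2 fold change 1.15, adjusted p = 0.282). KO replicate 4 held the highest sum, and without it 1 of the 4 was lower.

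Other Fc receptors and Fc-binding proteins differed in several members. Of 13 tested, 4 fell in KO and 1 rose, where 6.83% and 8.71% of all tested genes did. The median log2 fold change was -0.49. The 4 that fell are genes of B cells. Fcer2a, the low-affinity IgE receptor CD23, went down from 188 ± 22.7 CPM in WT to 70.5 ± 24.0 CPM in KO, with an adjusted p of 0.0104 (edgeR). Fcrl5 fell from 91.3 to 32.2 CPM, Fcrla from 168 to 71.1 CPM and Fcmr, the IgM receptor, from 295 to 124 CPM. The count was 1 without WT replicate 2. The log2 fold change of Fcer2a was -1.42 and that of Fcgr2b -0.32, a difference that was not tested. The B cell marker values given for Fcgr2b stand beside these 4 too, and their part was not tested. Fcrl6 rose from 6 to 55 counts over the groups, at 0.117 and 0.777 CPM, and was not called without WT replicate 2 or 3 or without KO replicate 1, 2 or 3.

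Other receptors that signal through the common chain had 2 of 6 tested members higher, where 8.71% of all tested genes were, and none lower. The median was 0.39, and all 6 were above 0. Pira2, a paired immunoglobulin-like receptor of a multigene family whose reads the counting could split, rose from 11.9 ± 2.17 to 26.9 ± 7.59 CPM, with an adjusted p of 0.0182. Clec4e, which encodes the glycolipid sensor Mincle, rose by 0.48 on the log2 scale (adjusted p = 0.0486). The count was 0 without WT replicate 1, 3 without KO replicate 4 and 1 without each of the others in turn. Monocyte markers were higher in the same libraries, and their part was not tested. Clec4n, which encodes dectin-2, stood at 0.80 and the natural killer receptor gene Ncr1 at 0.28, neither past the test. Among 8 other ITAM and adaptor chains, 4 fell, and they are the T cell chains Cd247, Cd3g, Cd3e and Cd3d, with log2 fold changes from -2.05 to -1.69. The count was 2 without WT replicate 2 and 6 without KO replicate 4. The T cell marker list, which holds Cd3g, Cd3e and Cd3d too, had a median of -1.82, and its part was not tested.

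In activating signalling, 3 of 23 genes rose and 4 fell, where 8.71% and 6.83% of all tested genes did. The median was -0.07. The scaffold gene Gab2 rose from 37.2 ± 4.44 to 66.4 ± 12.6 CPM (adjusted p = 0.0102), the adaptor gene Card9 by 0.57 and the exchange factor gene Vav3 by 0.41 on the log2 scale. Lat, the scaffold of T cell receptor signals, fell from 72.6 ± 16.6 to 24.7 ± 7.76 CPM (adjusted p = 0.00798), the kinase gene Fyn by 0.70, Plcg1 by 0.81 and Malt1 by 0.50. The T cell markers (9 of 10 lower, median -1.82), the B cell markers (median -0.89) and the monocyte markers (median 1.16) differed between the same libraries, and their part in the signalling genes, activating and inhibitory, was not tested. The counts in activating signalling were 1 and 1 without WT replicate 1, WT replicate 2 or KO replicate 2, and 2 and 2 without WT replicate 3. Syk, the kinase that binds a phosphorylated ITAM, stood at 1030 ± 137 CPM in WT and 736 ± 100 CPM in KO, did not overlap between groups and missed the threshold (adjusted p = 0.0502). Lyn, which phosphorylates the motifs, stood at -0.07 (adjusted p = 0.751). Of 11 genes of inhibitory signalling, 1 fell, Csk, which restrains Src family kinases, from 476 ± 19 to 333 ± 44.1 CPM (adjusted p = 0.0232), and it was not called without WT replicate 1, WT replicate 2 or KO replicate 2. Inpp5d and Ptpn6, genes of phosphatases that bind the phosphorylated ITIM, stood at -0.08 and -0.15 and were not called. Pag1, Cblb and Dok3 had log2 fold changes of -0.38, -0.47 and -0.28 that did not pass.

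Of 14 phagocytosis and oxidase genes, 1 rose and 2 fell, where 8.71% and 6.83% of all tested genes did. The median was -0.05. Ncf4, a subunit of the NADPH oxidase, rose by 0.70 on the log2 scale, Itgam, the integrin chain CD11b, fell by 0.80 and Gsn fell by 0.30, while Rac1, at 0.32, missed the threshold (adjusted p = 0.0519). No gene of this list was called without WT replicate 1, WT replicate 2 or KO replicate 2. Of 14 regulators of receptor expression, 2 rose, where 8.71% of all tested genes did, and none fell. The median was 0.14. Cebpa, a factor of myeloid progenitors, rose from 78.5 ± 3.09 to 141 ± 11.8 CPM (adjusted p = 0.00119). Spi1, which encodes PU.1, rose from 265 ± 26.6 to 341 ± 23.8 CPM (adjusted p = 0.0479), near the threshold, and without any 1 library other than KO replicate 3 only 1 of this list was called higher. Il10ra and Cebpb, at -0.33 and 0.49, did not pass. Here too the part of monocyte content was not tested.

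**Figure D5:**
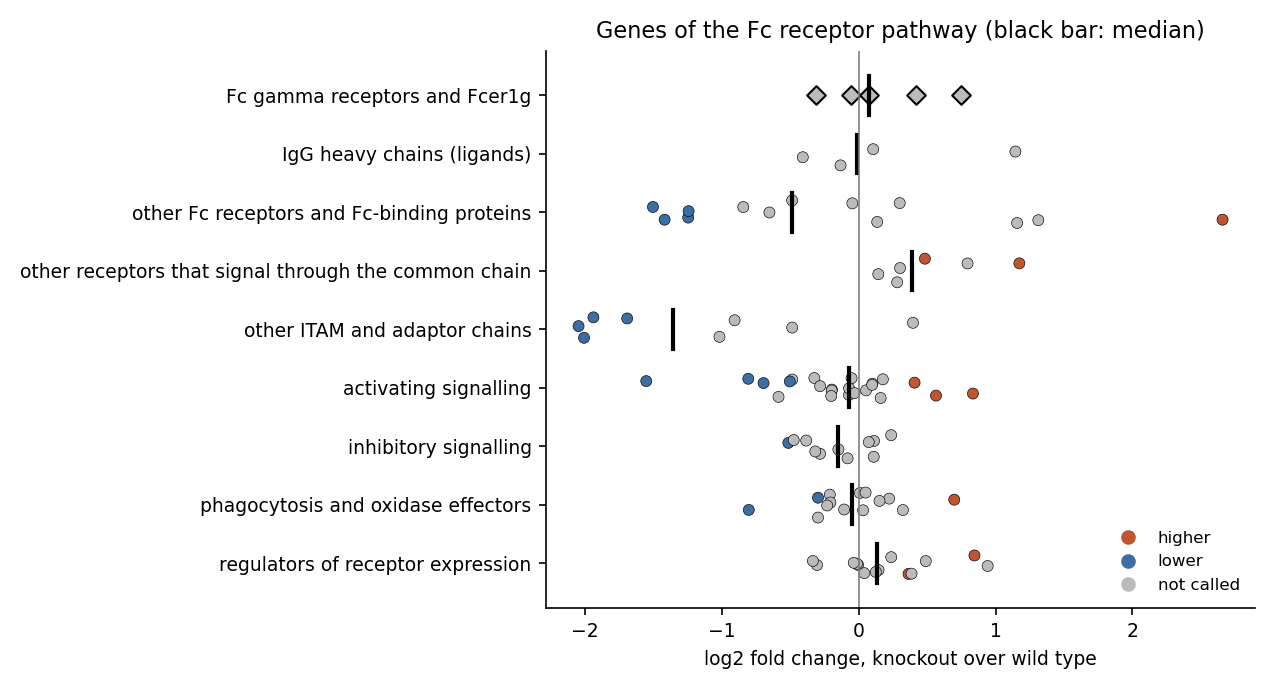
Log2 fold change (KO over WT) of each tested gene of the Fc receptor lists, with genes higher in KO at an adjusted p under 0.05 in orange, lower in blue and not called in grey, and the list median as a black bar. The 5 Fc gamma receptor and common chain genes, shown as diamonds at the top, run from -0.32 to 0.75, and T cell chains make up the lowest values.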

How the data were processed

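Per the file headers, the deposited table gives for each gene in each library a read count with no normalization and an FPKM value that uses a deposited gene length. The authors' own comparison was deposited as the mean of each side, log2 fold change, raw p-value and adjusted p-value. The sides of that comparison are coded. Their deposited means equal those of the size-factor-scaled KO and WT counts to within 4.95e-10. The submitters' processing notes name GRCm38 (mm10), and aligner, counting tool, strand setting, read length and the authors' test are not given in the sources used here. Library totals are given with the results, and p-values set the difference between the groups against the spread of these libraries within groups.

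Counts were fitted with edgeR 4.0.16 in R 4.3.3 (TMM, filterByExpr, robust quasi-likelihood F-test, genotype as the only term, all 7 libraries), two-sided, with Benjamini-Hochberg adjustment over 15795 genes, after a test of the step on simulated data. Intervals use the test's degrees of freedom. DESeq2 1.42.0 and limma 3.58.1 served alternatives, where limma-voom stands for voom with quality weights for the libraries. No pair of libraries agreed within sampling noise (chi-square per degree of freedom of at least 21.7). The members, lists and alternatives were chosen with earlier results of these data known. Named genes are all members, Stk4, the 3 closest profiles of each member (protein-coding, at least 1 CPM, prior count 2), the 4 genes of lowest p in each pathway list (8 at most in a list with over 4 calls) and the leading markers. Other genes named in the text, Inpp5d, Ptpn6, Syk, Lyn, Cd22, Tyrobp, Ly6c2, F13a1, Mmp8, Gata2 and Klrb1c among them, were picked after their values were seen. Transcripts are from GENCODE M21 and upstream bases from RefSeq.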

Additional observations from a re-analysis of the deposited data

Results flagged for a closer look

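Fcgr1 in KO replicate 3, at 29.7 CPM, lay far from the other KO libraries (74.0, 81.4 and 76.1 CPM), with a gap to the nearest of 0.858 of the group's range, above Dixon's critical value for 4 samples. It was the 1 flagged among 7 values examined, and chance flags about 1 in 20.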

How the results depend on the processing

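The count of genes called, 2455, was 3870 under limma-voom with quality weights and ranged from 1050 to 2553 without 1 library. It was 3352 with DESeq2. The count of members called, 0, was 1 (Fcgr2b) under DESeq2, limma-voom, RLE scaling and upper-quartile scaling. Over all genes tested, those fits called 3352 of 18190, 3870 of 15795, 2452 of 15795 and 2455 of 15795, respectively. The member count was also 1 (Fcgr2b) with a filter at a mean of 10 counts, protein-coding genes alone and log2 FPKM with a pseudocount of 1. Those fits called 2418 of 15470, 2413 of 12758 and 2262 of 15795 genes. Without WT replicate 1 the member count was 1 (Fcgr3, higher), where 1326 of 16173 genes were called. It was 0 without each of the other libraries in turn. The log2 fold change of Fcgr2b in the fits that called it was -0.31, -0.35, -0.32, -0.35, -0.32, -0.34 and -0.31, in that order. It ranged from -0.38 to -0.28 without 1 library, where Fcgr2b was not called. Fcgr4 turned positive under limma-voom (0.16), log2 FPKM with pseudocounts of 1 (0.16) and 0.1 (0.17) and the replicate block (0.15), and ranged from -0.44 to 0.45 without 1 library. Fcer1g turned negative under limma-voom (-0.016) and without WT replicate 3 (-0.052), with a range from -0.0518 to 0.278 without 1 library. Fcgr3 ranged from 0.25 to 0.78 and Fcgr1 kept its sign in all 20 alternatives, from 0.47 to 1.38. The activating to inhibitory ratio of KO over WT ranged from 1.29 to 2.01 without 1 library, and that of Fcer1g to the activating sum from 0.722 to 0.962. At transcript lengths with Fcgr2b-201 the mean KO ratio was 3.85, a setting chosen after seeing the data, as were the counts per list without 1 library and TMM factors without erythroid and T cell markers, which changed no member's call. The causes were not tested. The deviations of same-numbered libraries from their group means had correlations of -0.0482, 0.0251 and 0.158. Differently numbered libraries were not compared, so these values do not settle whether the numbers stand for pairs. The numbers were not taken as pairs. With the replicate block, 2119 genes and no member were called, Fcgr2b at -0.34 (adjusted p = 0.0861).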
